A study of Mus musculus with 5 samples.

Results

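The genes described here are the receptor tyrosine kinases Axl, Mertk and Tyro3 (the TAM receptors), their ligands, and engulfment genes that act in the uptake of dying cells. They were chosen by gene name, as a list of 9 symbols (Axl, Mertk, Tyro3, Gas6, Pros1, Mfge8, Elmo1, Dock2 and Gulp1). All 9 were found among the 56748 genes of the count table, and all 9 were among the 17724 genes with enough counts to be tested.

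RNA was sequenced from CD11b-positive cells of mouse brain with the cerebellum removed, 1 library per mouse, at 7 months of age. In 3 libraries the mice were 5xFAD/Cd5l tg/wt, here called Cd5l-transgenic: 5xFAD mice with an added transgene for mouse CD5L, a secreted scavenger-receptor-family protein, under the human PDGF-B promoter, which is widely used to drive expression in neurons. In the other 2 libraries (mice 1 and 3) the animals were 5xFAD, a line in which mutant human transgenes of familial Alzheimer's disease under the neuronal Thy1 promoter lead to amyloid plaques. Both groups carry the 5xFAD transgenes, and wild-type mice were not analysed here. The title of the series names phagocytic removal of amyloid oligomers, and the comparison asks whether RNA of these uptake genes differed between the genotypes.

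Dying cells expose phosphatidylserine, a lipid that healthy cells keep on the inner side of the membrane. Gas6 and protein S (Pros1) bind this lipid and the TAM receptors at the same time, so that a phagocyte grips the dying cell through Axl, Mertk or Tyro3, while Mfge8 does the same for integrins. Inside the phagocyte, complexes of ELMO and DOCK proteins activate the GTPase Rac, which drives the actin cup around the particle. In mouse brain, Mertk and Axl are the TAM receptors known from microglia, and Tyro3 is known from neurons and myelinating glia.

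The libraries held 30798377 to 34794617 counts, so a level of 1 count was worth 0.0282 to 0.0339 CPM (counts per 1000000 counts, scaled by TMM). The transgene was seen as labelled, with Cd5l at 234, 335 and 195 CPM in Cd5l-transgenic mice 1, 2 and 3 and at 1.52 and 0.254 CPM in 5xFAD mice 1 and 3. Counts of 10 microglial markers, all detected in every library, summed to 26418 to 28461 CPM in Cd5l-transgenic mice and 26182 to 27789 CPM in 5xFAD mice. Those of 8 neuronal markers summed to 9.80 to 19.7 CPM in Cd5l-transgenic mice and to 11.9 CPM in both 5xFAD mice. The labels name both CD11b-positive cells and brain tissue as the source of the RNA. Of the other cell types, oligodendrocyte RNA was high in Cd5l-transgenic mouse 2, and choroid plexus and ependymal RNA in 5xFAD mouse 3. The 8 endothelial markers summed to 638, 1180 and 677 CPM in Cd5l-transgenic mice and to 605 and 572 CPM in 5xFAD mice. The 8 mural markers summed to 254, 458 and 346 CPM in Cd5l-transgenic mice and to 184 and 255 CPM in 5xFAD mice. All 8 log2 fold changes lay above 0 in each of the oligodendrocyte, endothelial and mural lists. Other CD11b-positive cells also left RNA: the 8 monocyte markers summed to 223, 312 and 192 CPM in Cd5l-transgenic mice and to 154 and 153 CPM in 5xFAD mice, and the 8 neutrophil markers to 193, 149 and 72.3 CPM in Cd5l-transgenic mice and to 56.0 and 74.7 CPM in 5xFAD mice, with all 8 log2 fold changes above 0 in each list. Fn1 made up most of the monocyte sum in every library. None of the markers in these lists was called in edgeR. In that test 2 neuronal, 2 monocyte and 3 neutrophil markers had an unadjusted p under 0.05. So had 1 oligodendrocyte, 1 endothelial, 3 mural and 1 choroid plexus and ependymal marker, where the share over all tested genes was 2.63%. In the neuronal list 6 log2 fold changes lay above 0 and 2 below. In bulk RNA, fewer cells of a type and less RNA per cell cannot be told apart.

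None of the 9 genes differed between the genotypes beyond the spread between mice. In the edgeR quasi-likelihood test, 0 were called higher and 0 lower at an adjusted p under 0.05, where the background was also 0% of all tested genes in each direction. The adjusted p of the members lay between 0.995 and 0.999, and 0 of the 9 had an unadjusted p under 0.05 (smallest 0.202, for Tyro3), against 2.63% of all tested genes. DESeq2, which called 0.0827% of the genes higher and 0.0207% lower, and limma-voom also called 0 of the 9. The groups overlapped in 9 of 9 members, whereas 15.9% of all tested genes had groups that did not overlap. The median log2 fold change (Cd5l-transgenic minus 5xFAD) was -0.026 over the 9 members and -0.027 over all tested genes, with 4 members above 0 and 5 below, where 57.3% of all tested genes lay below 0. As the test called no gene at all, Cd5l included (log2 fold change 8.23, adjusted p = 0.448), the absence of calls does not show that levels were equal, and the intervals below give the range of differences these libraries leave possible.

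**Figure D1:**
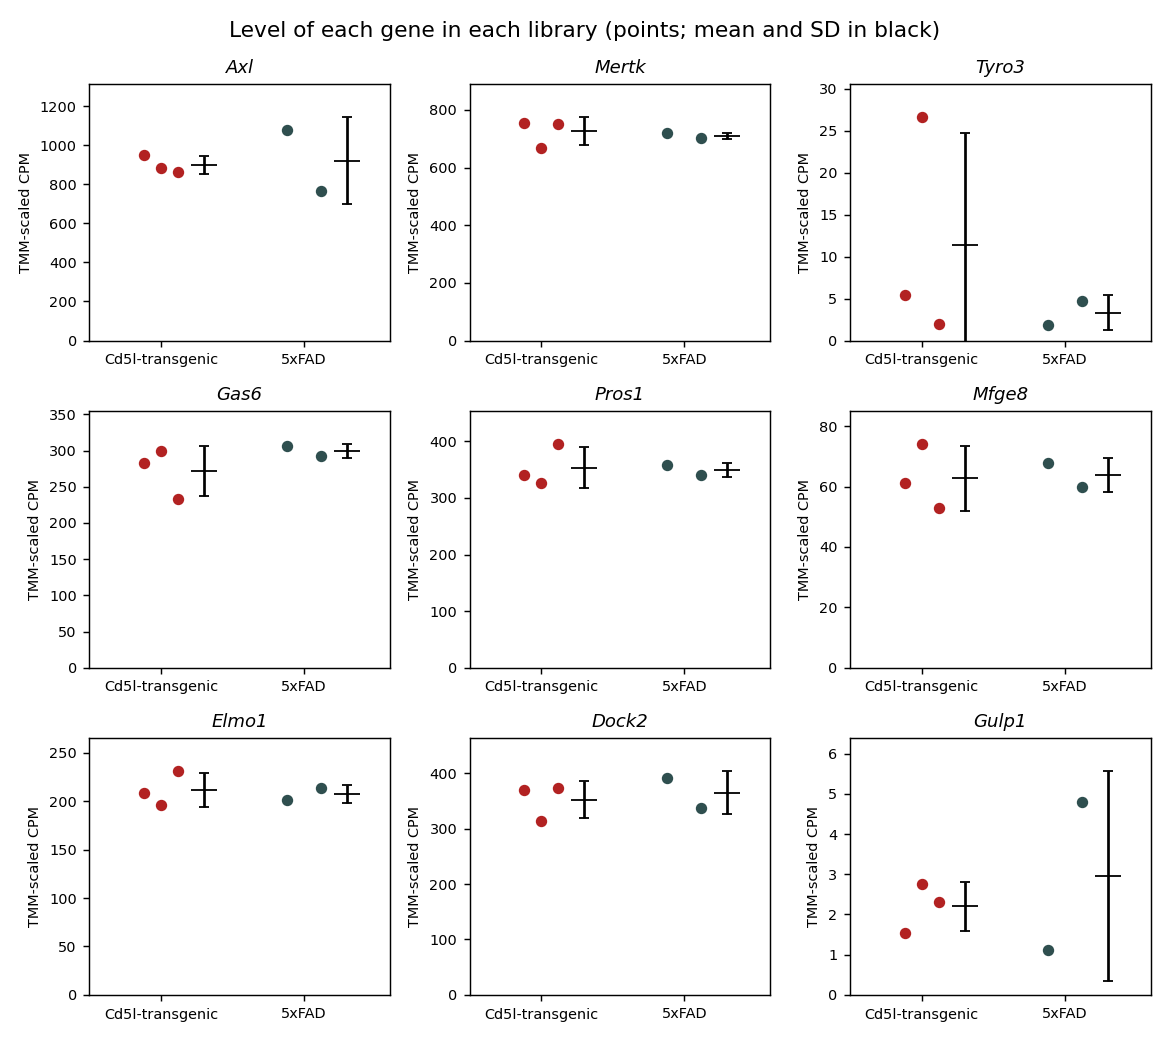
TMM-scaled CPM of each of the 9 genes (vertical axes, from 0) in the 3 Cd5l-transgenic libraries (red points) and the 2 5xFAD libraries (dark points), with the mean and SD of each group in black. The points of the groups overlap in every panel, the highest Tyro3 point (26.6 CPM) is Cd5l-transgenic mouse 2, and the lower end of its SD bar is cut off at 0.

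Read per length, Axl and Mertk were the most abundant of the 9 in every library, followed by Gas6 and Pros1, and Tyro3 was far below the other receptors. Counts were divided by the length of the gene model and scaled to a total of 1000000 in each library, a level per length in TPM. On that scale the mean order over the 5 libraries was Axl (603 TPM), Mertk (557 TPM), Gas6 (372 TPM), Pros1 (289 TPM), Dock2 (105 TPM), Elmo1 (56.1 TPM), Mfge8 (45.0 TPM), Tyro3 (4.42 TPM) and Gulp1 (2.26 TPM). Several neighbours in that order changed places between libraries. Mertk was above Axl in Cd5l-transgenic mouse 3 and in 5xFAD mouse 3, with Axl-to-Mertk ratios of the level per length of 1.08, 1.14 and 0.988 in Cd5l-transgenic mice and 1.29 and 0.935 in 5xFAD mice. Pros1 was above Gas6 only in Cd5l-transgenic mouse 3, where the Gas6-to-Pros1 ratio was 0.950, against 1.33 and 1.47 in Cd5l-transgenic mice 1 and 2 and 1.37 and 1.38 in the 5xFAD mice. Mfge8 and Elmo1 stood at 53.2 and 52.6 TPM in Cd5l-transgenic mouse 2, with Elmo1 higher in the other 4 libraries. Tyro3 was below Gulp1 in 3 of 5 libraries: the levels of Tyro3 were 2.93, 14.5 and 1.09 TPM in Cd5l-transgenic mice and 0.932 and 2.65 TPM in 5xFAD mice, and those of Gulp1 were 1.39, 2.48 and 2.10 TPM in Cd5l-transgenic mice and 0.939 and 4.40 TPM in 5xFAD mice. Their mean order therefore rests on Tyro3 in Cd5l-transgenic mouse 2. Tyro3 was below Mertk by a factor of 200.2, 35.9 and 547 in Cd5l-transgenic mice 1, 2 and 3 and of 561 and 211 in 5xFAD mice 1 and 3.

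**Figure D2:**
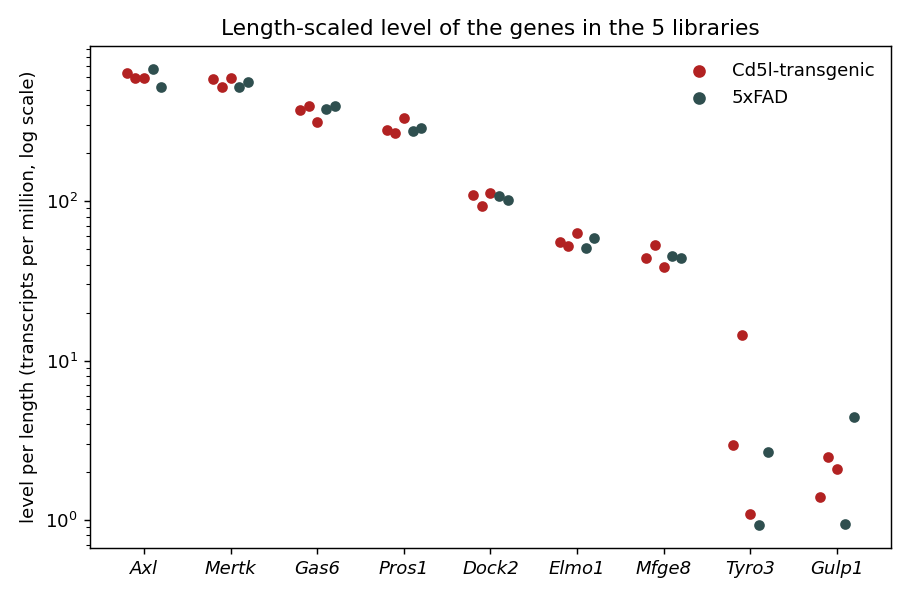
Length-scaled level (TPM, log axis) of the 9 genes, ordered by mean, with Cd5l-transgenic libraries in red and 5xFAD libraries in dark. Axl and Mertk share a range of 521 to 676 TPM, while Tyro3 and Gulp1 spread from 0.932 to 14.5 TPM.

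Axl and Mertk were close in level, and Tyro3 was far below both. The 250 bases before the start of each receptor gene are shown here. They come from the promoter table of RefSeq on build GRCm38.p6 (the count table uses GRCm39). Capitals mark 2 short motifs searched on both strands: GGGCGG, the GC box of Sp1-family factors (CCGCCC on the other strand), found in 32.7% of 32851 promoter windows of this length, and GAGGAA, the core letters of the site of the myeloid factor PU.1 (TTCCTC on the other strand), found in 23.3%. They do not overlap each other in these windows. Axl lies at chr7:25788734-25788983 (minus strand), Mertk at chr2:128698665-128698914 (plus strand) and Tyro3 at chr2:119799264-119799513 (plus strand).
Axl: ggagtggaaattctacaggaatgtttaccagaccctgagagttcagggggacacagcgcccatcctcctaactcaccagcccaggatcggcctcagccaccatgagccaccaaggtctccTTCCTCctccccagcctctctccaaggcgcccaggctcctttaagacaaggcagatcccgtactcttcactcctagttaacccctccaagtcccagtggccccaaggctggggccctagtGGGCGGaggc
Mertk: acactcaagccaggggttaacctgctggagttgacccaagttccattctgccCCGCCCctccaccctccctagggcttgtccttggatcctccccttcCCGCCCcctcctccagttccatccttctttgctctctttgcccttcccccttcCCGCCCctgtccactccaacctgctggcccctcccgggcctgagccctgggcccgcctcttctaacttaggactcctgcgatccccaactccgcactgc
Tyro3: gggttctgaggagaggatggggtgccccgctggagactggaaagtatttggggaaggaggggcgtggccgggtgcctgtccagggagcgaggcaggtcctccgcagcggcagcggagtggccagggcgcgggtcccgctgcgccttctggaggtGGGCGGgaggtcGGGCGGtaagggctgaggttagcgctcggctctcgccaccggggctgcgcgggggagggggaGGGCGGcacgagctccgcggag
The Axl window held 1 GC box and 1 match to the PU.1 core. Those of Mertk and Tyro3 held 3 GC boxes each and 0 matches to the PU.1 core. Mertk and Tyro3 thus had the same motif counts at very unlike levels. These are matches of letters, and the libraries hold no measure of binding. The part of these motifs in the levels was not tested.

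Axl (ENSMUSG00000002602, chromosome 7, 25456698 to 25488130, minus strand, GRCm39) is the TAM receptor that in mouse microglia is known to rise around plaques and with interferon. It stood at 951, 886 and 863 CPM in Cd5l-transgenic mice 1, 2 and 3 and at 1079 and 763 CPM in 5xFAD mice 1 and 3. The 5xFAD libraries were the highest and the lowest of the 5, with all Cd5l-transgenic libraries between them. The means were 900.2 ± 45.7 CPM (SD, n = 3) in Cd5l-transgenic mice and 921 ± 223 CPM (SD, n = 2) in 5xFAD mice, and the log2 fold change was -0.033 (SE 0.16, 95% interval -0.42 to 0.36, adjusted p = 0.999 in edgeR). Its sign was not stable: the value was 0.24 without 5xFAD mouse 1, -0.26 without 5xFAD mouse 3 and 0.015 without Cd5l-transgenic mouse 3, and 0.026 in limma-voom. 5xFAD mouse 1 was also the library highest in Itgax, the CD11c integrin chain of plaque-associated microglia, at 777, 750.2 and 736 CPM in Cd5l-transgenic mice and 1503 and 834 CPM in 5xFAD mice 1 and 3. Itgax was picked with earlier results of these data in view, and its part in the spread of Axl was not tested.

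Mertk (ENSMUSG00000014361, chromosome 2, 128540876 to 128644814, plus strand), the receptor that tethers and engulfs apoptotic cells in macrophages, varied least among the 9. Its levels were 756, 669 and 753 CPM in Cd5l-transgenic mice and 718 and 703 CPM in 5xFAD mice. Both 5xFAD libraries lay within the Cd5l-transgenic range, and the highest library exceeded the lowest 1.13-fold. The log2 fold change was 0.031 (SE 0.095, 95% interval -0.20 to 0.26, adjusted p = 0.997 in edgeR), a ratio between 0.869 and 1.20. It lay between 0.00079 and 0.099 when each library was left out in turn.

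Tyro3 (ENSMUSG00000027298, chromosome 2, 119628214 to 119648585, plus strand) had by far the widest spread, and it rested on 1 mouse. It had 167, 849 and 65 counts in Cd5l-transgenic mice 1, 2 and 3 and 54 and 169 counts in 5xFAD mice 1 and 3, or 5.40, 26.6 and 1.97 CPM against 1.83 and 4.77 CPM. Only Cd5l-transgenic mouse 2 was well above the others, and Cd5l-transgenic mouse 3 lay within the 5xFAD range. The log2 fold change of 1.74 had a standard error of 1.20 and a 95% interval of -1.29 to 4.78 (adjusted p = 0.995 in edgeR). Without Cd5l-transgenic mouse 2 it was 0.13.

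The 8 oligodendrocyte markers, all detected in every library, summed to 1077, 4239 and 365 CPM in Cd5l-transgenic mice 1, 2 and 3 and to 367 and 339 CPM in 5xFAD mice 1 and 3. Cd5l-transgenic mouse 2 was highest in this sum as in Tyro3. The 8 endothelial markers were highest in the same mouse, with sums of 638, 1180 and 677 CPM in Cd5l-transgenic mice and 605 and 572 CPM in 5xFAD mice. The neuronal, astrocyte, mural and monocyte sums were also highest in that mouse, at 19.7, 444, 458 and 312 CPM, against at most 11.9, 360, 346 and 223 CPM in the other 4 libraries. The monocyte sum is made up mostly of Fn1, at 267 CPM in that mouse, and none of the other monocyte markers was highest there. 5xFAD mouse 3 did not follow the oligodendrocyte sum: its Tyro3 level was close to that of Cd5l-transgenic mouse 1 at less oligodendrocyte RNA. The part of these cell types in the Tyro3 values was not tested.

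**Figure D3:**
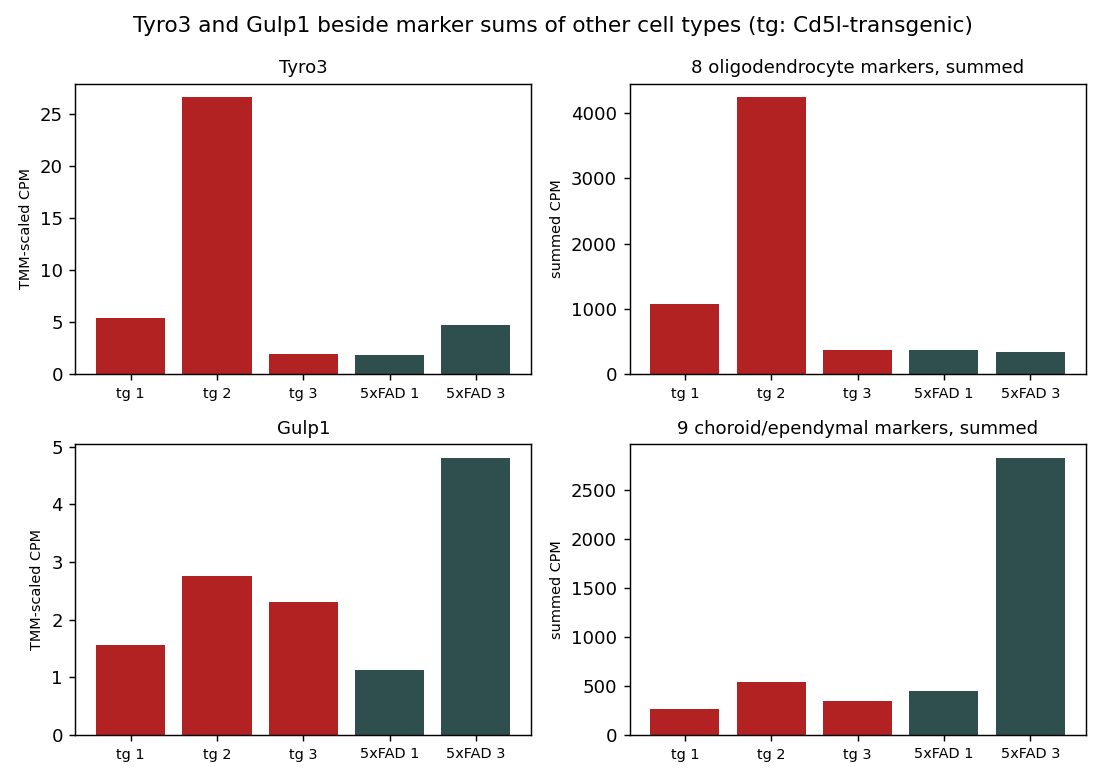
Levels of Tyro3 and Gulp1 (left, TMM-scaled CPM) beside the summed CPM of 8 oligodendrocyte markers and 9 choroid plexus and ependymal markers (right), 1 bar per library, Cd5l-transgenic (tg) in red and 5xFAD in dark. Tyro3 and the oligodendrocyte sum are both highest in Cd5l-transgenic mouse 2 (26.6 and 4239 CPM), and Gulp1 and the choroid plexus sum in 5xFAD mouse 3 (4.80 and 2821 CPM).

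For each receptor the genes with the most similar pattern were found as those with the smallest root mean square difference in centred log2 CPM over the 5 libraries, among 10502 genes of at least 5 CPM. For Axl, Apobr was among them (0.028 log2 units). Mertk was closest to Plagl2 and Ncor1 (0.0074 and 0.011 log2 units). The genes closest to Tyro3 were Aplp1 and Ncam1 (0.17 log2 units each), and Aplp1 stood at 42.0, 199 and 18.2 CPM in Cd5l-transgenic mice and 17.2 and 32.3 CPM in 5xFAD mice. With 5 libraries this is a description.

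Gas6 (ENSMUSG00000031451, chromosome 8, 13515374 to 13544490, minus strand) encodes the ligand of all TAM receptors and binds Axl most tightly. It stood at 283, 299 and 234 CPM in Cd5l-transgenic mice and 306 and 293 CPM in 5xFAD mice. Cd5l-transgenic mouse 3 was the lowest library and mouse 2 lay between the 5xFAD libraries. The means were 272 ± 34.1 CPM (SD, n = 3) in Cd5l-transgenic mice and 299 ± 9.40 CPM (SD, n = 2) in 5xFAD mice, with a log2 fold change of -0.14 (SE 0.12, 95% interval -0.43 to 0.16, adjusted p = 0.995 in edgeR). Without Cd5l-transgenic mouse 3 it was -0.020.

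Pros1 (ENSMUSG00000022912, chromosome 16, 62674670 to 62749709, plus strand) encodes protein S, an anticoagulant cofactor that is also a ligand of Mertk and Tyro3. Its levels were 341, 326 and 395 CPM in Cd5l-transgenic mice and 358 and 341 CPM in 5xFAD mice. Here Cd5l-transgenic mouse 3, the lowest library for Gas6, was the highest. The log2 fold change was 0.017 (SE 0.11, 95% interval -0.25 to 0.28, adjusted p = 0.999 in edgeR).

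Mfge8 (ENSMUSG00000030605, chromosome 7, 78783516 to 78798808, minus strand) encodes the bridging protein that links phosphatidylserine to integrins containing the alpha V chain. It stood at 61.1, 74.0 and 52.9 CPM in Cd5l-transgenic mice and 67.8 and 59.9 CPM in 5xFAD mice, so that the Cd5l-transgenic libraries reached both above and below the 5xFAD range. The log2 fold change was -0.026 (SE 0.15, 95% interval -0.40 to 0.35, adjusted p = 0.999 in edgeR). As with Gas6, Cd5l-transgenic mouse 2 was the highest and mouse 3 the lowest of its group.

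Elmo1 (ENSMUSG00000041112, chromosome 13, 20274766 to 20792523, plus strand) encodes the scaffold of the Rac-activating complex. Its levels were 208, 196 and 231 CPM in Cd5l-transgenic mice and 201 and 214 CPM in 5xFAD mice. Both 5xFAD libraries lay within the Cd5l-transgenic range, and the log2 fold change was 0.028 (SE 0.096, 95% interval -0.21 to 0.26). Dock2 (ENSMUSG00000020143, chromosome 11, 34176815 to 34674719, minus strand), the Rac activator of blood-lineage cells that ELMO proteins bind, stood at 369.5, 314 and 374 CPM in Cd5l-transgenic mice and 392 and 338 CPM in 5xFAD mice. Its log2 fold change was -0.050 (SE 0.12, 95% interval -0.34 to 0.24), and Cd5l-transgenic mouse 2 was the lowest library for both genes. The adjusted p in edgeR was 0.998 for Elmo1 and 0.996 for Dock2.

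Gulp1 (ENSMUSG00000056870, chromosome 1, 44590671 to 44835998, plus strand) encodes an adaptor related to the Caenorhabditis elegans engulfment protein CED-6 and was, with Tyro3, 1 of the 2 lowest of the 9 per length. It had 48, 88 and 76 counts in Cd5l-transgenic mice and 33 and 170 counts in 5xFAD mice, or 1.55, 2.76 and 2.30 CPM against 1.12 and 4.80 CPM. The 5xFAD libraries were again the lowest and the highest of the 5. The log2 fold change of -0.47 (SE 0.60, 95% interval -1.96 to 1.03, adjusted p = 0.995 in edgeR) was 0.98 without 5xFAD mouse 3 and -1.12 without 5xFAD mouse 1. The 9 choroid plexus and ependymal markers summed to 262, 538 and 341 CPM in Cd5l-transgenic mice and to 444 and 2821 CPM in 5xFAD mice 1 and 3, with 5xFAD mouse 3 highest as in Gulp1. Their part in the Gulp1 values was not tested. The 8 astrocyte markers summed to 360, 444 and 312 CPM in Cd5l-transgenic mice and to 305 and 324 CPM in 5xFAD mice. That sum is made up mostly of Gfap, Slc1a3 and Slc1a2, and single markers differed from it. Aqp4, the water channel of astrocyte endfeet, was highest in 5xFAD mouse 3, as Gulp1 was, at 6.34, 7.59 and 5.54 CPM in Cd5l-transgenic mice and 4.81 and 21.9 CPM in 5xFAD mice. The gap junction gene Gja1 was also highest there, at 7.72, 17.5 and 8.41 CPM in Cd5l-transgenic mice and 4.68 and 22.5 CPM in 5xFAD mice. Aqp4 and Gja1 were picked after their values were seen, and none of the other astrocyte markers was highest in that library. Slc1a2, Slc1a3, Aldh1l1, Aldoc and Slc4a4 were highest in Cd5l-transgenic mouse 2. Gfap was highest in Cd5l-transgenic mouse 1, at 168 CPM, and lowest in 5xFAD mouse 3, at 116 CPM. The part of astrocytes in the Gulp1 values was not tested.

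**Figure D4:**
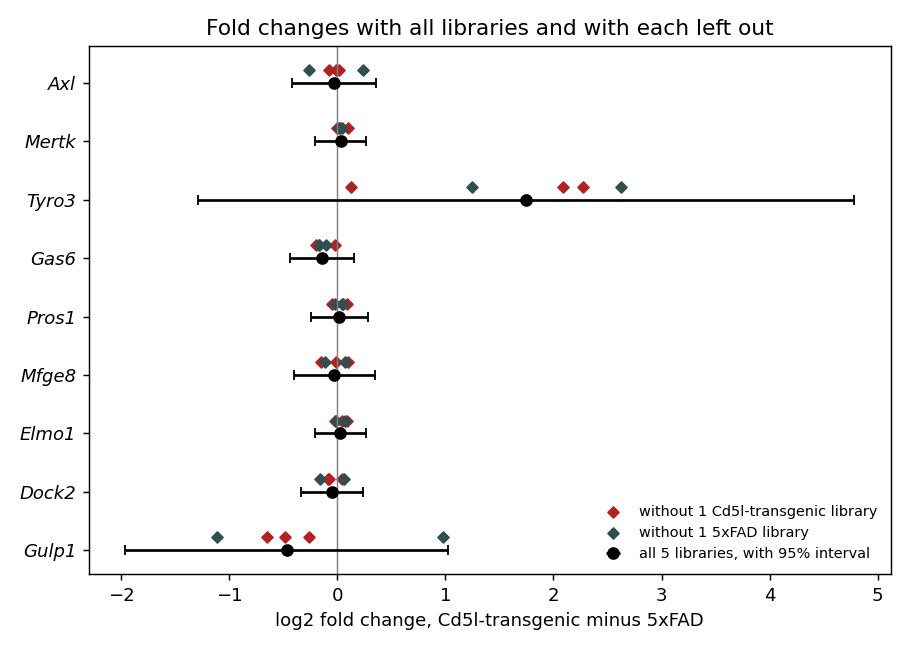
Log2 fold change of each gene, Cd5l-transgenic minus 5xFAD, with all 5 libraries (black, bars are 95% intervals) and with a Cd5l-transgenic (red) or 5xFAD (dark) library left out. All black intervals include 0, and Tyro3 (-1.29 to 4.78) and Gulp1 (-1.96 to 1.03) have the widest.

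The sign of the log2 fold change of Axl, Pros1, Mfge8, Elmo1, Dock2 and Gulp1 changed when 1 or other library was left out, and that of Mertk, Tyro3 and Gas6 did not. For the 7 members other than Tyro3 and Gulp1, the 95% intervals span ratios from 0.740 (Gas6) to 1.28 (Axl), so a 2-fold difference in either direction lies outside them. Those of Tyro3 and Gulp1 span ratios of 0.409 to 27.5 and of 0.257 to 2.04, which include 2-fold differences in both directions. Genes that overlap the members had few counts: Tmem255b, on the strand opposite Gas6, had at most 117, a snoRNA gene within Mertk at most 190 and the remaining ones at most 14.

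Other genes of apoptotic-cell uptake were examined as 4 lists of 79 genes in all, of which 75 were tested. None was called in edgeR, DESeq2 or limma-voom, and 1 (Vav3) had an unadjusted p under 0.05 in edgeR. Of the 75 genes, 36 lay above 0 and 39 below, with a median of -0.0038. The groups did not overlap in 7 genes, 2 higher and 5 lower in Cd5l-transgenic mice, which is 9.33% against the background of 15.9% (7.2% higher and 8.69% lower). Over the 4 lists the adjusted p in edgeR ran from 0.995 to 1.00.

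Of the other receptors and bridging proteins for apoptotic cells, 21 of 23 were tested, 11 above 0 and 10 below, with a median of 0.027. Havcr1 and Stab2 were left out for low counts. The integrin chains through which Mfge8 acts, Itgb5, Itgav and Itgb3, had log2 fold changes of -0.013, -0.0075 and -0.0038. Anxa5, which binds phosphatidylserine, stood at 162, 170.2 and 166 CPM in Cd5l-transgenic mice and 219 and 167 CPM in 5xFAD mice (log2 fold change -0.22, SE 0.12), a value set by 5xFAD mouse 1. The same library was highest for the activating receptor Cd300lb, at 11.0, 8.47 and 11.4 CPM in Cd5l-transgenic mice and 17.8 and 10.2 CPM in 5xFAD mice (log2 fold change -0.44, SE 0.27), and with it left out the value was 0.0071. Stab1, the scavenger receptor stabilin-1, stood at 761, 597 and 699.7 CPM in Cd5l-transgenic mice and 548 and 637 CPM in 5xFAD mice (log2 fold change 0.21, SE 0.13).

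The widest values in that list were those of Megf10 and Adgrb1, engulfment receptors known from astrocytes among other cells, which were singled out after their values were seen. Megf10 stood at 3.49, 14.3 and 1.21 CPM in Cd5l-transgenic mice and 0.949 and 2.77 CPM in 5xFAD mice (log2 fold change 1.72, SE 1.16). For Adgrb1, also called BAI1, the levels were 2.62, 10.3 and 1.39 CPM in Cd5l-transgenic mice and 1.02 and 3.19 CPM in 5xFAD mice (log2 fold change 1.13, SE 1.01). Both were highest in Cd5l-transgenic mouse 2, as Tyro3 was, and without that library the log2 fold changes were 0.29 for Megf10 and -0.11 for Adgrb1. Their link to the oligodendrocyte sum was not tested.

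All 22 genes of engulfment signalling to Rac were tested, 13 above 0 and 9 below, with a median of 0.028. Vav3, an exchange factor for Rac, stood at 2.46, 2.04 and 2.66 CPM in Cd5l-transgenic mice and 0.745 and 1.27 CPM in 5xFAD mice. It was higher in 3 of 3 Cd5l-transgenic libraries, from 65 to 88 counts against 22 and 45 (log2 fold change 1.21, SE 0.35, unadjusted p = 0.0133 and adjusted p = 0.995 in edgeR). The monocyte sum was likewise higher in 3 of 3 Cd5l-transgenic libraries, and its part in the Vav3 values was not tested. That sum is made up mostly of Fn1, at 156, 267 and 145 CPM in Cd5l-transgenic mice and 116 CPM in both 5xFAD mice. Rhog, a GTPase that recruits ELMO, had narrow groups that did not overlap, at 146, 145 and 140.4 CPM in Cd5l-transgenic mice and 132 and 130.1 CPM in 5xFAD mice (log2 fold change 0.13, SE 0.068). For Ptk2b, the kinase PYK2, the log2 fold change was -0.14 (SE 0.13) with all libraries and 0.031 when 5xFAD mouse 1 was left out. Rac1 itself was at 0.0037.

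Among genes of TAM ligand maturation, receptor shedding and feedback, 20 of 21 were tested, 9 above 0 and 11 below, with a median of -0.015. The carboxylase Ggcx, which acts on Gas6 and protein S with vitamin K, and the proteases Adam10 and Adam17, which shed TAM receptors, had log2 fold changes of 0.024, 0.092 and -0.00088. Socs3, a cytokine-signalling inhibitor that TAM receptors can induce, was lower in 3 of 3 Cd5l-transgenic libraries at 315, 230.1 and 364 CPM, against 395 and 389 CPM in 5xFAD mice (log2 fold change -0.37, SE 0.19). The 15 immediate early and heat shock genes associated with cell isolation summed to 13947.5, 12598 and 19451 CPM in Cd5l-transgenic mice and 19458 and 18739 CPM in 5xFAD mice, and the order of the Cd5l-transgenic libraries was the same as for Socs3. Their part in the Socs3 values was not tested.

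Of the genes of phosphatidylserine exposure and signals against engulfment, 12 of 13 were tested, 3 above 0 and 9 below, with a median of -0.077. Plscr1, a phospholipid scramblase gene, stood at 4.88, 6.18 and 5.39 CPM in Cd5l-transgenic mice and 6.98 and 6.63 CPM in 5xFAD mice (log2 fold change -0.31, SE 0.18). The log2 fold change of Xkr6, of the XKR scramblase family, was -0.23 (SE 0.14). Sirpa, the receptor of the CD47 signal against engulfment, stood at 2707, 2636 and 2795 CPM in Cd5l-transgenic mice and 3206 and 2687 CPM in 5xFAD mice (log2 fold change -0.12, SE 0.12). With 5xFAD mouse 1 left out it was at 0.015. Cd24a, chosen after its values were seen as the lowest log2 fold change of the list (-0.65, SE 0.73), stood at 10.5, 10.9 and 5.93 CPM in Cd5l-transgenic mice and 3.80 and 24.4 CPM in 5xFAD mice, with 5xFAD mouse 3 highest, and its log2 fold change without that library was 1.26.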

How the data were processed

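The deposited values were whole-number counts per Ensembl gene, with no normalisation, as the authors gave them in 1 table of 56748 genes. The genome build was GRCm39 per the submitters' processing notes. The aligner, counting tool, annotation release and strandedness were not given in the sources used here. The gene lengths used for TPM are those of the deposited table. Libraries were grouped by their titles, and 1 column whose letter pairs are in swapped order (Cd5l-transgenic mouse 3) was matched by its letters and number. Nothing beyond the titles says that the mice are separate animals, so p-values measure the spread between these libraries. All pairs of libraries differed beyond counting noise (chi-square per degree of freedom 21.5 to 61.3).

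Genes were filtered with filterByExpr, scaled with TMM and tested with the quasi-likelihood test of edgeR 4.0.16 (robust, non-legacy dispersion handling, genotype alone, 3 Cd5l-transgenic against 2 5xFAD libraries, Benjamini-Hochberg over 17724 genes, R 4.3.3). Standard errors and 95% intervals were derived from the F statistic and its degrees of freedom. DESeq2 1.42.0, fitted over all genes, and limma 3.58.1 were alternatives. The non-legacy setting and the DESeq2 fit over all genes were chosen after a first run with the package default and with filtered genes, to match the earlier processing of these data, and edgeR called no gene in either run. The scripts were tested on simulated data, 3 libraries against 2, with 100 genes changed 2-fold and 100 changed 8-fold. There edgeR called 38 of the 2-fold and 79 of the 8-fold changes, and 19 unchanged genes. DESeq2 called 52, 86 and 83 of these, and limma-voom 37, 80 and 16. The simulated counts were drawn independently for each gene, with no RNA of other cell types added to single libraries. These rates therefore need not hold for the real comparison, in which edgeR called no gene. Named beyond the 9 members were, per list, up to 3 tested genes of at least 1 CPM by smallest unadjusted p, and 2 genes per receptor by likeness. Some genes that this rule names are not reported here. Members and lists were chosen with earlier results of these data known.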

Additional observations from a re-analysis of the deposited data

How the results depend on the processing

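Over 13 alternatives none of the 9 members passed an adjusted p of 0.05 (116 values, adjusted p from 0.408 to 1.00), and 17 of the 116 changed sign. Of the other uptake genes 0 were called in each. Without 1 library at a time, log2 fold changes ran from -0.26 to 0.24 for Axl, -0.050 to 0.086 for Pros1, -0.15 to 0.10 for Mfge8, -0.019 to 0.094 for Elmo1, -0.16 to 0.063 for Dock2, -1.12 to 0.98 for Gulp1, 0.13 to 2.62 for Tyro3, -0.80 to 0.0071 for Cd300lb, -0.30 to 0.031 for Ptk2b, -0.24 to 0.015 for Sirpa, -0.11 to 2.22 for Adgrb1 and -1.42 to 1.26 for Cd24a. A 5xFAD library left out leaves a lone 5xFAD mouse that is assumed to vary like the others. limma-voom gave 0.026 for Axl and -0.016 for Pros1, the filter of 5 CPM in 2 samples gave 0.0023 for Axl and 0.0089 for Mfge8 (Gulp1 did not pass that filter), and without 5xFAD mouse 3 and Cd5l-transgenic mouse 2 together Gulp1 was at 0.80 and Cd24a at 1.12. Over all genes, DESeq2 called 12 higher and 3 lower, leaving out both those mice gave 13 higher and 28 lower, and single libraries left out gave 0 higher and 0 to 10 lower. The cause of these differences was not tested.

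Mice that share a number are not stated to be related, and same-numbered libraries deviated with correlations of 0.13 (number 1) and -0.24 (number 3) across genes. Deviations were taken from the mean of each group. Those of the 2 5xFAD libraries are therefore equal and opposite, and the 2 correlations are not independent checks. With the number as a replicate block, Dock2 was at 0.031, Tyro3 at 0.099, Axl at -0.0018 and Adgrb1 at -0.066. No 5xFAD library has number 2, so that block held Cd5l-transgenic mouse 2 alone. The genotype difference in this fit therefore came from the mice with numbers 1 and 3 only. Without Cd5l-transgenic mouse 2 and without a block, Dock2 was at 0.040, Tyro3 at 0.13, Axl at -0.0089 and Adgrb1 at -0.11. For each of these genes the value with the block was closer to this value than to the value with all 5 libraries and no block. Gas6 (-0.22, unadjusted p = 0.080 in edgeR) and Mfge8 (-0.16, unadjusted p = 0.095 in edgeR) lay further from 0 with the block than with all 5 libraries and no block. So did Mertk (0.086), Pros1 (0.069), Elmo1 (0.080) and Gulp1 (-0.53). Without Cd5l-transgenic mouse 2 and without a block, Gas6 was at -0.20 and Mfge8 at -0.15. In that fit Mertk (0.099), Pros1 (0.086), Elmo1 (0.094) and Gulp1 (-0.65) lay further from 0 than with the block. With the block, edgeR called 0 genes (610 at an unadjusted p under 0.05). Tyro3 had 54 to 849 counts and Gulp1 33 to 170, and the part of depth in the spread of these genes was not tested.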
